A study of Mus musculus with 2 samples.

Results

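The genes described here are 10 C-type lectin receptors of myeloid cells, the DCIR group, the Dectins, Mincle and their relatives. They were compared between a pair of mouse bone marrow populations, and all 10 were measured among 19935 genes in all. The members are Clec4a1, Clec4a2, Clec4a3, Clec4d, Clec4e, Clec4n, Clec5a, Clec7a, Clec12a and Cd209a, chosen by name with earlier results of these arrays known, so their values are given as a description. Each was read by 1 probe set that names no other gene.

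Both populations came from the marrow of ddY mice, an outbred strain, at 6 weeks of age. Gradient-purified mononuclear cells were labelled with antibodies to c-Fms, which binds M-CSF, and to RANK, which binds the osteoclast factor RANKL, and then sorted by flow cytometry. RANKhighFmslow cells carry much RANK and little c-Fms on their surface, and RANKlowFmshigh cells the reverse. The mice had no other stated treatment or genetic change. The study concerns precursors of osteoclasts, the cells that resorb bone, and the comparison sets a population marked by RANK against one marked by c-Fms.

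There was 1 array per population, made from amplified total RNA, and how many mice stand behind each array is not stated. No difference therefore has a replicate error, a test or a p-value. In sorted populations, fewer cells of a type and less RNA per cell cannot be told apart. Differences are log2 intensities in RANKhighFmslow cells minus RANKlowFmshigh cells, so that a negative value means lower in RANKhighFmslow cells. The size used for counting was a factor of 2, which is 1 on the log2 scale. A level filter kept the 11089 genes with a value of 93.6 or more on either array, which is the pooled median of the probe sets. As a guide to background, 1189 olfactory and vomeronasal receptor genes had 95th percentiles of 83.8 in RANKhighFmslow cells and 81.8 in RANKlowFmshigh cells. Where a gene's lower value lay under its percentile, the fold is given as a bound. Csf1r, the gene of c-Fms, stood at 164 in RANKhighFmslow cells and 821 in RANKlowFmshigh cells, the order of the label. Tnfrsf11a, the gene of RANK, stood at 104 in RANKhighFmslow cells and 119 in RANKlowFmshigh cells, which is not the order of the label. Its values lay not far above the background percentiles, and the log2 difference was only -0.20.

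C-type lectin receptors of this kind sit on monocytes, macrophages, dendritic cells and neutrophils and bind sugars, glycolipids or cell debris. Activating members signal through an ITAM, a tyrosine motif that recruits the kinase Syk, either in their own tail or in a partner chain. Inhibitory members carry an ITIM, which recruits phosphatases. In the osteoclast lineage the same partner chains, encoded by Fcer1g and Tyrobp, provide the costimulation that RANK signalling needs.

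The bases before the transcript start are shown for 4 members, Clec4a1 with the lowest difference, Clec7a, the almost level Clec4e, and Clec4d, the 1 member that was higher in RANKhighFmslow cells. The sequences are RefSeq's on GRCm38.p6, each the 250 bases that end just before the annotated start, 5′ to 3′ on the gene's strand. Capitals mark GAGGAA, the core that PU.1 and related ETS factors bind, on either strand (TTCCTC on the other). PU.1 is a transcription factor that monocyte and osteoclast formation requires.
Clec4a1, chr6:122921598-122921847, plus strand: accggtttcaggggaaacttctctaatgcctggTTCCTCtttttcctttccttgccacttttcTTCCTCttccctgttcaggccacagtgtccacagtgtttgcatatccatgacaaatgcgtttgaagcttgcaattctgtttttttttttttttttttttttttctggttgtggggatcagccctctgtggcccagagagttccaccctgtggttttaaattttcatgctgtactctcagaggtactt
Clec7a, chr6:129472780-129473029, minus strand: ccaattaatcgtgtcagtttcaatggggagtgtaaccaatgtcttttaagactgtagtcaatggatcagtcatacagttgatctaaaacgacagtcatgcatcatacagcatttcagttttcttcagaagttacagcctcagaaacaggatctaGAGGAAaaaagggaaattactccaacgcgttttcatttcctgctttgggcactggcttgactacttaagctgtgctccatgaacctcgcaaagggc
Clec4e, chr6:123289872-123290121, minus strand: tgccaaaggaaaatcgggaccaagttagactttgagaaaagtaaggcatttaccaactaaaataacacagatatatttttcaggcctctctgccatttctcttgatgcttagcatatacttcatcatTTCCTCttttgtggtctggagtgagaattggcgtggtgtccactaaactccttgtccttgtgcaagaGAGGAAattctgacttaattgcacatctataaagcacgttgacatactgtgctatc
Clec4d, chr6:123261857-123262106, plus strand: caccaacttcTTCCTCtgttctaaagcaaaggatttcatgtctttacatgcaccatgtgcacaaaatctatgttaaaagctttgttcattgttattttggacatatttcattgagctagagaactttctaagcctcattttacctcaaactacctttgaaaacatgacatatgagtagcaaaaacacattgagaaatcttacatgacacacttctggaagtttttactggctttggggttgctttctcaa

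Of the 10 receptor genes, 9 were lower in RANKhighFmslow cells and 1, Clec4d, was higher. Over all 19935 genes 9377 were lower and 10313 higher. At least 2-fold lower were 5 of 10, namely Clec4a1, Clec7a, Cd209a, Clec4a3 and Clec5a, and 0 were at least 2-fold higher. Of all 19935 genes 2.38% were at least 2-fold lower in RANKhighFmslow cells, and 2.44% were higher by the same factor. The median difference of the receptor genes was -1.20, beside 0.01 over all genes. The level filter kept 9 of the 10 and left out Clec4n, whose higher value of 93.6 lay just under it. Among the genes kept by the filter, 4.26% were lower by 2-fold or more and 4.34% higher. The member just inside the 2-fold limit was Clec5a, at -1.47, and the one just outside it was Clec12a, at -0.93.

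**Figure D1:**
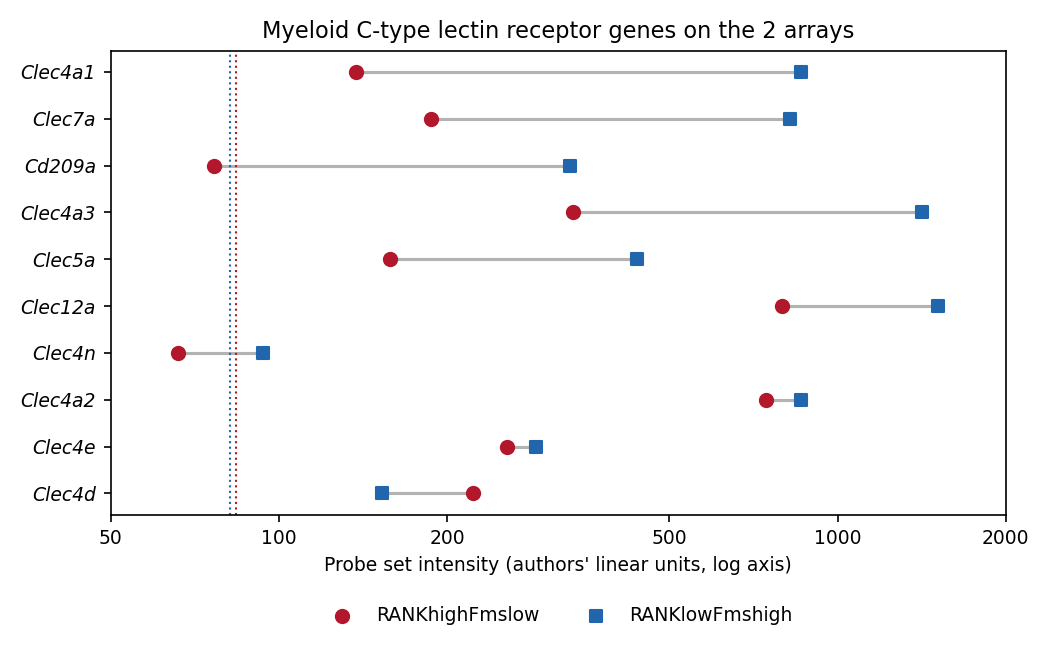
Probe set intensity (log axis) of each lectin receptor gene in RANKhighFmslow cells (circles) and RANKlowFmshigh cells (squares), 1 array each, ordered by the difference; dotted lines are the background percentiles of each array (83.8 and 81.8). Circles lie left of squares for 9 of 10 genes, and Clec4d has the circle to the right.

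The receptors that signal through Syk did not share 1 pattern. Clec7a encodes Dectin-1, the receptor for fungal beta-glucan, which has an ITAM-like motif in its own tail. It stood at 187 in RANKhighFmslow cells and 821 in RANKlowFmshigh cells, 4.38-fold lower in RANKhighFmslow cells. Clec5a encodes MDL-1, which pairs with the adaptor DAP12, the product of Tyrobp. It stood at 158 in RANKhighFmslow cells and 437 in RANKlowFmshigh cells, 2.76-fold lower in RANKhighFmslow cells.

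The other Syk-coupled receptors use the Fc receptor gamma chain encoded by Fcer1g. Of these, Clec4e and Clec4d lay within 2-fold and Clec4n has a bound only. Clec4e encodes Mincle, a receptor for mycobacterial glycolipid and for dying cells. Its intensity was 256 in RANKhighFmslow cells and 288 in RANKlowFmshigh cells, a log2 difference of -0.17. Clec4d encodes MCL, which forms a receptor complex with Mincle. It stood at 223 in RANKhighFmslow cells and 153 in RANKlowFmshigh cells, so that it was 1.45-fold higher in RANKhighFmslow cells. The genes of these partner receptors, which lie side by side on the chromosome, thus differed by -0.17 and 0.54. Clec4n encodes Dectin-2, a receptor for fungal mannans. Its value of 66.1 in RANKhighFmslow cells was within background and that of 93.6 in RANKlowFmshigh cells above it, which gives at least 1.12-fold lower in RANKhighFmslow cells.

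Among the ITIM-bearing receptors, Clec4a2, which encodes DCIR, was almost level, at 744 in RANKhighFmslow cells and 860 in RANKlowFmshigh cells (-0.21). Clec12a encodes MICL, an inhibitory receptor for uric acid crystals on granulocytes and monocytes. It stood at 795 in RANKhighFmslow cells and 1514 in RANKlowFmshigh cells, 1.90-fold lower in RANKhighFmslow cells.

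The close DCIR relatives Clec4a1 (Dcir4) and Clec4a3 (Dcir3), which are not known to carry an ITIM, had large differences. Clec4a1 stood at 138 in RANKhighFmslow cells and 859 in RANKlowFmshigh cells, and 11 of the 11089 genes had a lower difference than its -2.64. Clec4a3 stood at 337 in RANKhighFmslow cells and 1418 in RANKlowFmshigh cells, 4.21-fold lower in RANKhighFmslow cells. Within the DCIR genes, then, the differences were -2.64, -2.07 and -0.21 for Clec4a1, Clec4a3 and Clec4a2. These genes are related in sequence, and how far each probe set reads the others was not tested.

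Cd209a, a mouse relative of the human adhesion and uptake receptor DC-SIGN, is used as a marker of dendritic cells that derive from monocytes. Its value was 76.6 in RANKhighFmslow cells, within background, and 332 in RANKlowFmshigh cells. It was at least 3.97-fold lower in RANKhighFmslow cells. In RANKhighFmslow cells 8 of the 10 receptor genes were above background, all but Cd209a and Clec4n, and in RANKlowFmshigh cells all 10 were. The median over all probe sets also lay above the background percentile on each array. Being above background therefore does not by itself set the receptor genes apart from other genes.

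**Figure D2:**
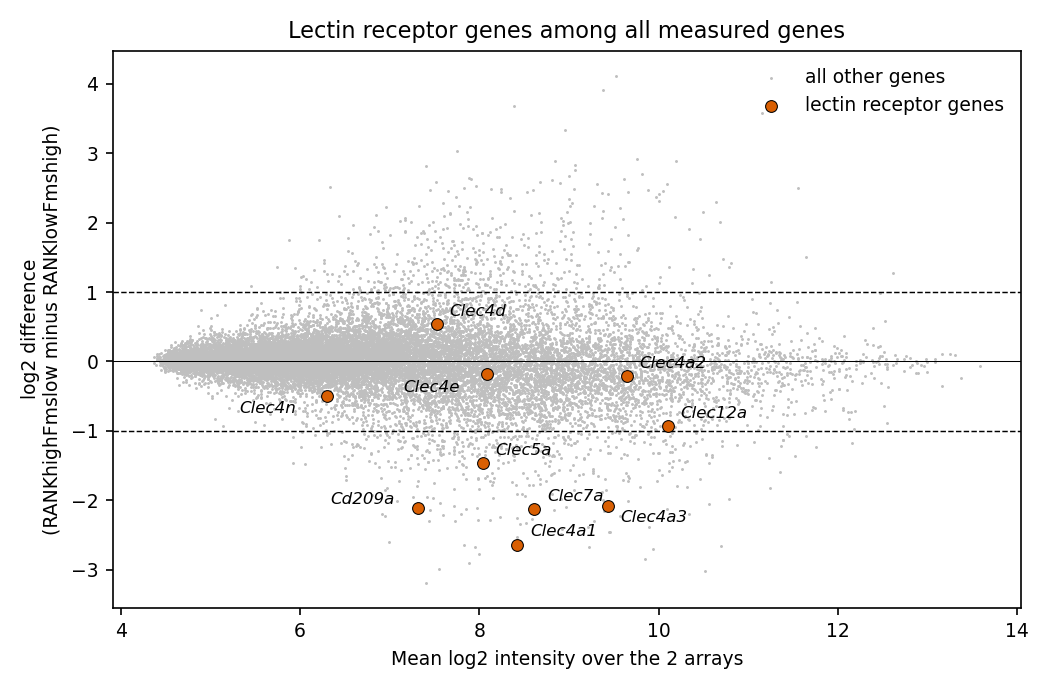
Log2 difference (RANKhighFmslow minus RANKlowFmshigh) against mean log2 intensity for all 19935 genes (grey) and the 10 lectin receptor genes (orange); dashed lines mark 2-fold. Of the orange points 5 lie under the lower line, 1 lies above 0, and none lies above the upper line.

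The genes whose pair of levels lay nearest to the mean pair of the receptors (217 in RANKhighFmslow cells and 489 in RANKlowFmshigh cells, as geometric means) were Pign, Slc39a10 and Pla2g7. Their log2 differences were -1.19, -1.12 and -1.24, at Euclidean distances of 0.02, 0.04 and 0.06 on the log2 scale. With 2 arrays this likeness is loose, since 53 genes lay within 0.25 of that pair.

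Of the receptor genes 9 lie on chromosome 6 and Cd209a lies on chromosome 8, in the RefSeq annotation of GRCm38.p6, which was used here for gene order. Clec4a1, Clec4a3, Clec4a2, Clec4n, Clec4d and Clec4e follow each other in that order in 1 cluster, with other Clec4 genes and pseudogenes among them. Neighbours in the cluster differed in opposite directions. Clec4b1 (DCAR family), between Clec4a3 and Clec4a2, stood at 156 in RANKhighFmslow cells and 521 in RANKlowFmshigh cells, 3.34-fold lower in RANKhighFmslow cells. Its close relative Clec4b2, on the other side of Clec4a2, stood at 167 in RANKhighFmslow cells and 81.9 in RANKlowFmshigh cells, 2.04-fold higher in RANKhighFmslow cells. That lower value was just above the background percentile of 81.8. Clec4a4 (Dcir2) lay within background on both arrays, at 28.8 in RANKhighFmslow cells and 39.3 in RANKlowFmshigh cells. At the edge of the cluster, C3ar1, the receptor of complement C3a, differed by -0.81 and Necap1, a factor of clathrin-coated vesicles, by -0.38.

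Clec12a and Clec7a lie in a second cluster of chromosome 6, which was just as mixed. Olr1, next to Clec7a, encodes the receptor for oxidised lipoprotein LOX-1. It stood at 219 in RANKhighFmslow cells and 66.4 in RANKlowFmshigh cells, at least 2.68-fold higher in RANKhighFmslow cells, while Clec7a was 4.38-fold lower. Clec9a, a dendritic cell receptor for exposed actin filaments, was at least 1.63-fold lower, at 61.1 in RANKhighFmslow cells and 136 in RANKlowFmshigh cells. Cd69, an early activation antigen of lymphocytes, was 3.67-fold higher, at 924 in RANKhighFmslow cells and 252 in RANKlowFmshigh cells. Clec12b, Clec1b and Clec1a lay within background on both arrays. Beside Cd209a on chromosome 8, Fcer2a, the B cell receptor CD23, was 5.18-fold higher in RANKhighFmslow cells. None of the measured genes within 3 places of Clec5a passed the level filter.

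**Figure D3:**
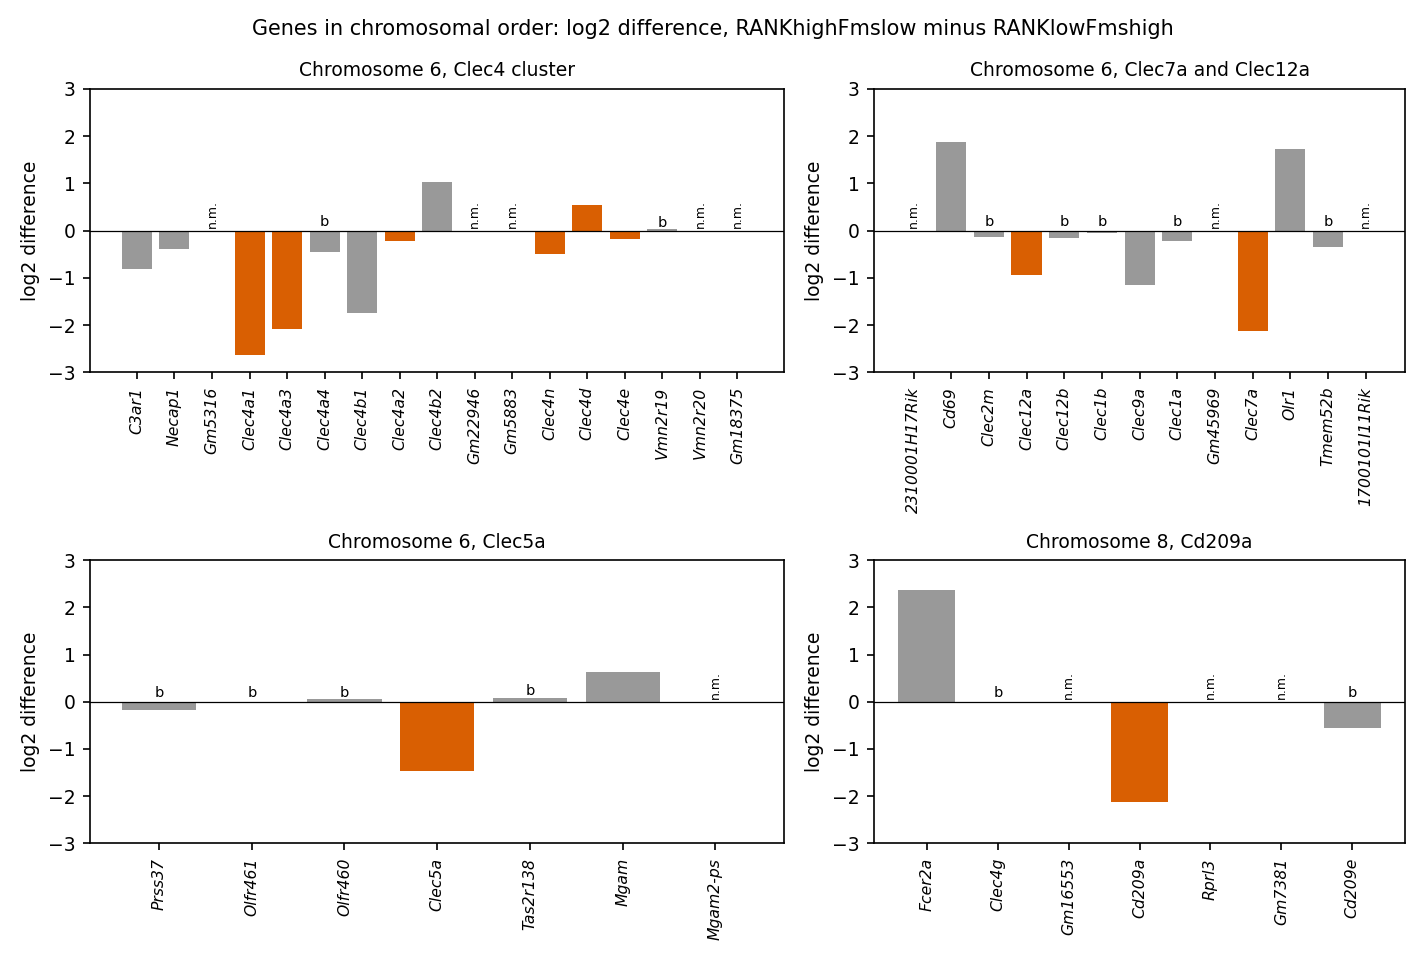
Log2 difference (RANKhighFmslow minus RANKlowFmshigh) of genes in chromosomal order around the lectin receptor genes (orange) with their neighbours (grey); b marks genes within background on both arrays and n.m. genes with no probe set of their own. In the Clec4 cluster Clec4a1, Clec4a3 and Clec4b1 reach below -1 and Clec4b2 reaches above 1.

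In the 250 bases before the start, GAGGAA on either strand was found in the first listed window of 6 of the 9 receptor genes that matched the RefSeq promoter table. The 6 were Clec4a1, Clec4d, Clec4e, Clec5a, Clec7a and Clec12a. The same letters occur in 23.1% of the windows of 27025 genes, 1 per gene. The Clec4a3 gene has a match in its other listed window. Clec4a2 and Cd209a have none. Clec4e, with 2 matches, differed by -0.17 and Clec4a1, also with 2, by -2.64. Clec4a2, with none, differed by -0.21, and Cd209a, with none, was at least 3.97-fold lower in RANKhighFmslow cells. Any bearing of the motif on the differences was not tested. TGANTCA, the letters that AP-1 binds, occurred in 1 of the 9 windows (Clec12a) and in 6.87% of all. TTGCNNAA, a C/EBP-type motif, occurred on either strand in 2 of 9 (Clec4e and Clec12a) and in 9.55% of all. The motifs were chosen with the values known, and a match is a run of letters, not a measured site.

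The remaining C-type lectins of myeloid cells were mostly at background. Of 24 such genes, all measured, 9 passed the level filter, of which 3 had measured values 2-fold or more lower in RANKhighFmslow cells and 2 had values higher by that factor. The median over the 24 was -0.16. Of the 3 lower ones, Clec4b1 was above background on both arrays. The other two, Clec9a and Cd302, were within background in RANKhighFmslow cells, and their bounds of 1.63-fold and 1.95-fold do not reach 2-fold. Cd302, a receptor of phagocytes, stood at 78.7 in RANKhighFmslow cells and 163 in RANKlowFmshigh cells. The higher ones were Olr1 and Clec4b2. C-type lectins known from lymphocytes showed the opposite balance. Of 6 that passed the filter 4 were at least 2-fold higher in RANKhighFmslow cells and 0 were lower by that factor. Beside Fcer2a and Cd69 the higher ones were Cd72, an inhibitory B cell receptor (3.52-fold), and the NK cell receptor chain Klrd1 (2.57-fold). The 2 between were both lower, Clec2i at -0.98, just short of 2-fold, and Clec2d at -0.47. Of all 10 measured 6 were higher and 4 lower, with a median of 0.37. That count and median include 4 genes within background on both arrays, some counted as higher and some as lower.

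The adaptor genes of the activating receptors were abundant on both arrays. Fcer1g stood at 668 in RANKhighFmslow cells and 1344 in RANKlowFmshigh cells, 2.01-fold lower in RANKhighFmslow cells. Tyrobp differed by -0.72 and Hcst, which encodes DAP10, by 0.40. Syk itself, named outside the rule after its values were seen, stood at 633 in RANKhighFmslow cells and 556 in RANKlowFmshigh cells.

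Of 15 kinases and exchange factors of the ITAM pathway 12 were measured. Of these, 2 were at least 2-fold lower in RANKhighFmslow cells, 1 was at least 2-fold higher and 9 lay between, around a median of -0.22. Vav3, an exchange factor of the pathway, was 2.56-fold lower and the Src family kinase gene Fgr 2.31-fold lower. Prkcd, the kinase that couples Syk to CARD9, stood at 1172 in RANKhighFmslow cells and 2199 in RANKlowFmshigh cells (-0.91). Rasgrp3, a Ras exchange factor that B cells use, was 4.74-fold higher in RANKhighFmslow cells.

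Of 12 genes of the CARD9 complex and NF-kappaB branch 10 were measured. None of these reached 2-fold, and 7 were lower in RANKhighFmslow cells. Card9, the adaptor that passes the Syk signal to NF-kappaB, stood at 73.2 in RANKhighFmslow cells, within background, and 113 in RANKlowFmshigh cells. Ikbkb, an NF-kappaB activating kinase, differed by -0.99, the ubiquitin ligase gene Traf6 by -0.57 and the kinase gene Map3k7 by -0.41. The genes of the phosphatases that ITIMs recruit were all lower in RANKhighFmslow cells but within 2-fold. The differences were -0.47 for Inpp5d (SHIP1), -0.30 for Ptpn6 (SHP-1) and -0.09 for Ptpn11 (SHP-2).

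Of 8 genes for partners of the receptors at the membrane, 6 were lower in RANKhighFmslow cells and 2 higher, with a median of -0.72. By size, 1 was at least 2-fold lower in RANKhighFmslow cells, 2 were at least 2-fold higher and 5 lay between. Ms4a4a, a partner of Dectin-1 in macrophages, was 2.34-fold lower, at 177 in RANKhighFmslow cells and 413 in RANKlowFmshigh cells, and Tlr4 differed by -0.91. Cd37, a tetraspanin that restrains Dectin-1, was 2.49-fold higher, at 1112 in RANKhighFmslow cells and 446 in RANKlowFmshigh cells. Cd63, a tetraspanin of granules and lysosomes, was 5.87-fold higher. Of the protein ligands, Sf3b3, whose product is the Mincle ligand SAP130, differed by -0.58, Lgals9 by 0.46 and Icam2 by 0.91.

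Genes that respond to these receptors gave no common direction. Of 16 measured, 10 passed the filter. In RANKhighFmslow cells 1 of these was lower by 2-fold or more and 2 were higher. Nlrp3, an inflammasome sensor, was 2.30-fold lower, at 122 in RANKhighFmslow cells and 282 in RANKlowFmshigh cells. The immediate early gene Egr1 was 2.54-fold higher, the cytokine gene Il1b 2.16-fold higher, and the chemokine gene Ccl4 differed by 0.70.

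**Figure D4:**
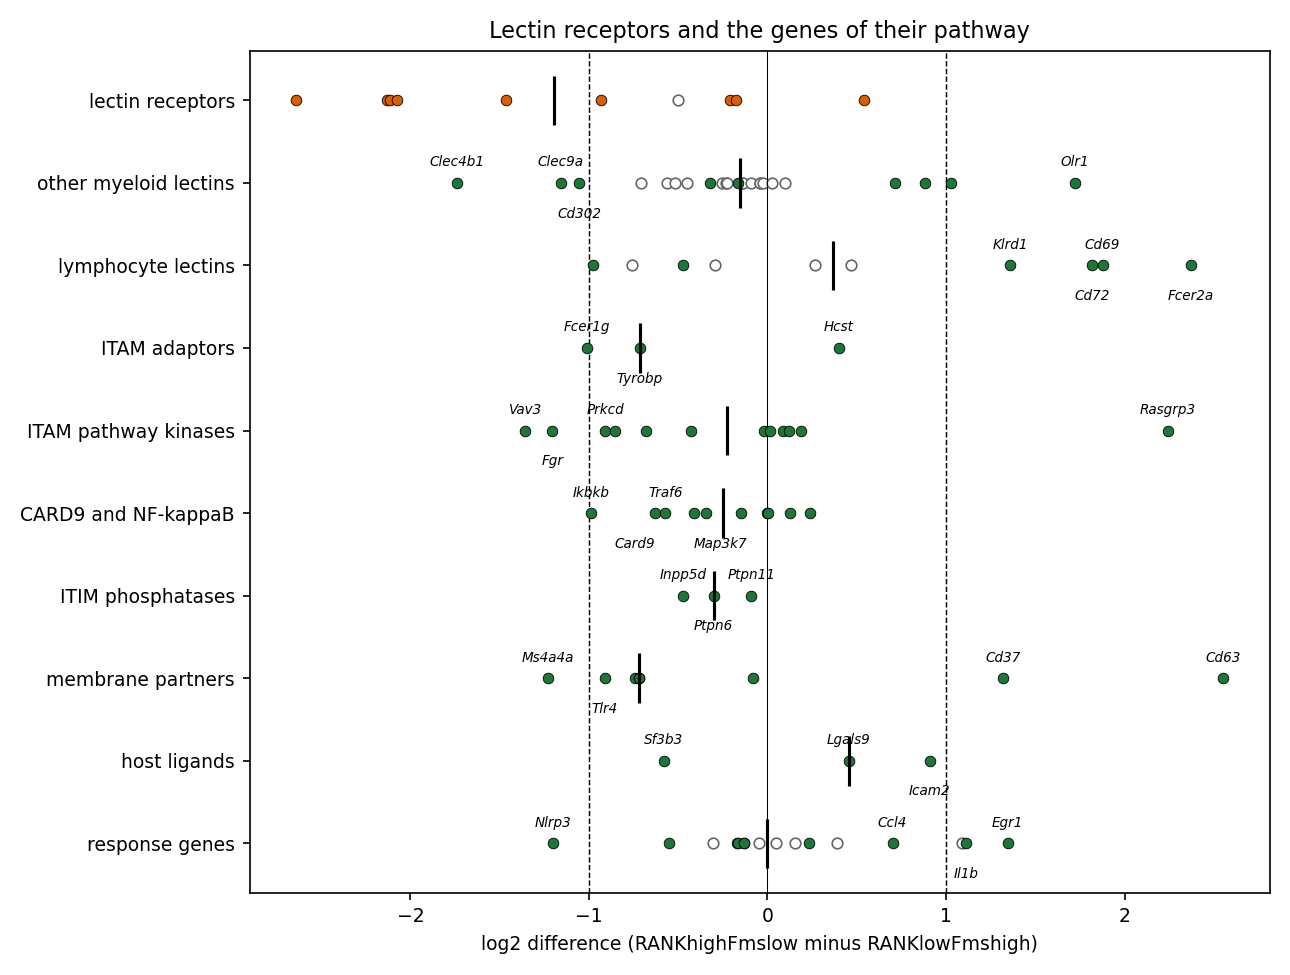
Log2 difference (RANKhighFmslow minus RANKlowFmshigh) of each measured gene in the lectin receptor list (orange) and in lists of related genes (green); open circles did not pass the level filter, black bars are list medians over all measured genes, and dashed lines mark 2-fold. The receptor list has its median at -1.20 and the list of CARD9 and NF-kappaB genes has no point past 2-fold.

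Markers of cell types also differed between the arrays, and not all in the same direction. All 10 measured monocyte markers of 12 listed, 1 of which (Cd14) is also in the list of membrane partners, were lower in RANKhighFmslow cells, 7 of them at least 2-fold, with a median of -1.76. Their summed intensity was 4851 in RANKhighFmslow cells and 19258 in RANKlowFmshigh cells. The lowest differences were those of the coagulation factor gene F13a1 (-3.01) and the fibronectin gene Fn1 (-2.66). The receptor genes summed to 2980 in RANKhighFmslow cells and 6776 in RANKlowFmshigh cells. Macrophage and dendritic cell lists had medians of 0.02 and -0.05, with members in both directions. In the macrophage list 9 of 13 genes were higher in RANKhighFmslow cells and 4 were lower. Many of these differences were slight. The 3 genes that did not pass the level filter all counted as higher, with differences of 0.05 or less. Siglec1 (0.01), counted as higher, and C1qa (-0.06), counted as lower, passed it but were almost level. By 2-fold or more 3 were lower and 2, C1qc and Vcam1, were higher. The scavenger receptor gene Msr1 (-2.42) and Adgre1 (-1.70) had the lowest differences in that list.

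Neutrophils also carry receptors of this kind. Their markers were mostly higher in RANKhighFmslow cells, 11 of 14 against 3 that were lower, with a median of 1.39. By 2-fold or more 8 were higher and 0 were lower. The 14 genes summed to 48305 in RANKhighFmslow cells and 20120 in RANKlowFmshigh cells. The highest differences were those of Retnlg (4.11) and the surface antigen gene Ly6g (3.34). The eosinophil list had a median of 1.87, the basophil and mast cell list 1.16, the B lineage list 1.81, the T and NK cell list 0.99, the erythroid list 2.42 and the megakaryocyte list 0.71. The part of these other cells in the receptor differences was not tested.

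**Figure D5:**
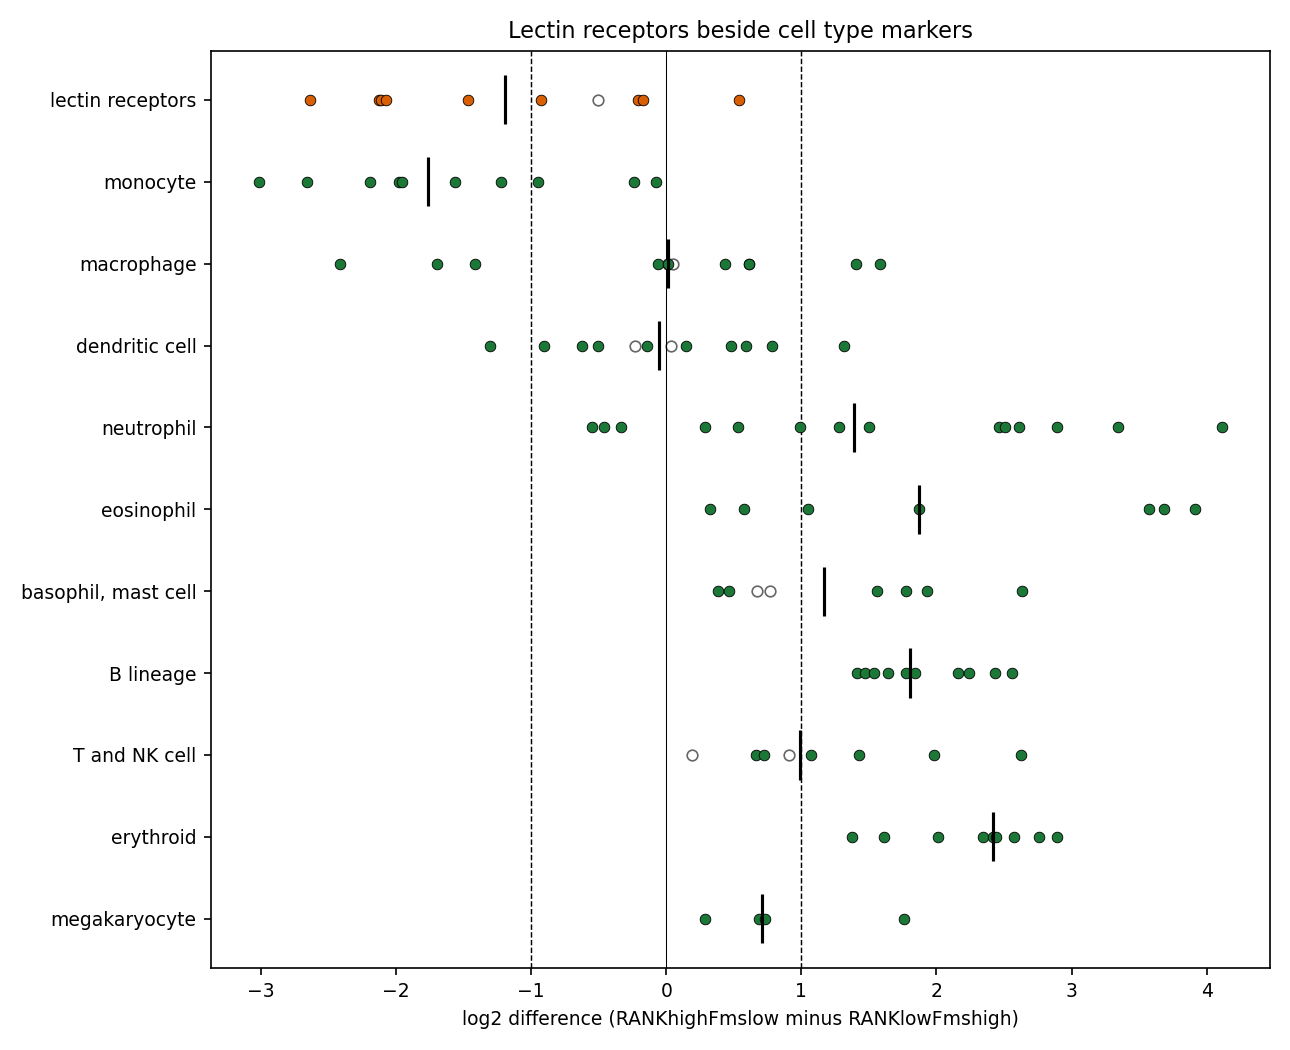
Log2 difference (RANKhighFmslow minus RANKlowFmshigh) of the lectin receptor genes (orange) beside markers of 10 cell types (green); open circles did not pass the level filter, black bars are list medians over all measured genes, and dashed lines mark 2-fold. The monocyte markers all lie below 0, at a median of -1.76, and the B lineage and erythroid markers all lie above 1.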

How the data were processed

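The deposited values were linear intensities, 1 per probe set and array, as the authors computed them. The submitters' processing notes name RMA and GCOS 1.4. What each did, and the genome build, is not given in the sources used here. Scanner files were not analysed here. Values spanned 19.9 to 13198 in RANKhighFmslow cells and 20.3 to 13453 in RANKlowFmshigh cells. The 2016 platform annotation gave a single gene for 21780 of the 28815 probe sets, several genes for 1605 and no entry for 5430. Intensities were put on the log2 scale with no pseudocount or scaling, and probe sets of a gene were averaged, which gave 19935 genes (Python 3.11.15, pandas 2.3.3).

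The members, lists, background guide and motifs were chosen with earlier results of these data known. Named are all members, the sort markers, up to 4 genes per list (2 for cell types) with the largest absolute difference above the level filter, neighbours above that filter (every gene from 3 places before to 3 after the members of a cluster, joined at gaps under 1 Mb), and the 3 nearest genes in level. The neighbours Clec4a4, Clec12b, Clec1b and Clec1a, below that filter, were named after their values were seen. So were Clec2i, Clec2d, C1qc, Vcam1, Siglec1 and C1qa, which pass it. Alternatives were quantile normalization, median centring, a pseudocount of 32, a background floor, other rules for probe sets and level filters. The number of arrays, 2, limits the precision.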

Additional observations from a re-analysis of the deposited data

How the results depend on the processing

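The count of receptor genes at least 2-fold lower in RANKhighFmslow cells was 5, and that of genes at least 2-fold higher was 0, under all 8 alternatives run. Under both level filters, at 93.6 and at 187, which each kept 9 of the 10 genes by leaving out Clec4n, the median difference was -1.47 in place of -1.20; under the other 6 alternatives it lay within 0.195 of that value, the median gap between probe sets of genes that have 2 (558 genes), which served as the limit for calling a value moved. With a pseudocount of 32 the difference was -2.39 for Clec4a1 and -1.75 for Cd209a, and with the background floor it was -0.16 for Clec4n. No receptor gene changed direction. The 2 alternatives on the choice of probe sets could not change any value here, since no receptor gene had another probe set or a shared one. Each level filter uses a gene's higher value, and for the 5 genes at least 2-fold lower this was 332 or more. The filters could therefore change neither count. No paired analysis was possible because each population had 1 array, and no replicate could be left out. Agreement between settings says nothing of the error between animals, which 1 array per population does not show.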
